A study of Mus musculus with 26 samples.

Results

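The knee joints of mice 4 weeks after destabilization of the medial meniscus (DMM) were compared, across all genes measured, with joints of mice 4 weeks after sham surgery. The comparison held 6 of the 26 arrays of a time course, 3 of DMM joints and 3 of sham control joints, chosen by the surgery and the week in their labels. The mice were male C57BL/6, 12 weeks old at surgery and 16 weeks old when the joints were taken. In DMM surgery the ligament that ties the medial meniscus to the tibia is cut, which leaves the meniscus loose and is followed by slowly developing osteoarthritis, and in the sham surgery that ligament is left intact. Unoperated joints of mice 12 weeks old (time 0, 3 arrays) and the DMM and sham joints of 2, 8 and 16 weeks (17 arrays) were used as reference values and for the estimate of the spread.

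Each array measured RNA pooled from the joints of 3 mice, so the 6 pools hold 18 animals, and the error given throughout is that between pools, not between mice. The RNA came from a block of the medial compartment with articular cartilage, subchondral bone, meniscus, capsule with synovium and ligaments. Values are log2 signals, in which a difference of 1 is a doubling, and log2 ratios are DMM minus sham. Defining markers of cartilage (Col2a1, Acan), bone (Ibsp, Dmp1), osteoclasts (Acp5, Ctsk), synovial lining (Prg4) and tendon (Tnmd) passed the brightness filter, and so did those of skeletal muscle (Acta1, Myh4) and of marrow neutrophils (S100a8), although muscle outside the joint had been trimmed away. Mkx (tendon), Calcr (osteoclast), Krt14 (epidermis) and Mcpt4 (mast cell) lay below the filter. In such a block, fewer cells of a type and less RNA per cell cannot be told apart.

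Array medians lay between 7.90 and 7.95. The deposited values had already been normalized, so these near-equal medians cannot show whether an array was shifted as a whole. The mean signal of the skeletal muscle list was 11.18, 10.34 and 10.97 in DMM pools 1, 2 and 3 and 11.55, 11.56 and 11.45 in the sham pools, so every DMM pool held less muscle signal than every sham pool. The Gapdh 3′ to 5′ log2 difference, a sign of RNA integrity, ranged from 0.33 to 0.48 in the DMM pools and from 0.31 to 0.47 in the sham pools. DMM pool 1 correlated with the sham pools (mean r = 0.981) as closely as with the other DMM pools (mean r = 0.978). Outside the comparison, the 2-week sham pool 2 resembled the DMM pools of 4 weeks (mean r = 0.987) more than the sham pools of 4 weeks (mean r = 0.972).

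As background, a joint is built from several connective tissues whose cells make different matrices: chondrocytes lay down collagen II and aggrecan, fibroblasts of ligament, capsule and synovium lay down collagens I, III, V, VI, XII and XIV, and bone cells mineralize collagen I. In osteoarthritis the cartilage matrix is cut by metalloproteinases and aggrecanases, the synovium thickens, and fibrocartilage and new bone form at the joint margins. Transforming growth factor beta, bone morphogenetic proteins, Wnts and insulin-like growth factors steer these cells.

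Of 11487 genes tested, 2331 (20.3%) differed between DMM and sham joints at an adjusted p under 0.05 in limma. More genes were up-regulated than down-regulated: 1518 (13.2%) were higher and 813 (7.08%) were lower in the DMM joints. At the level of probe sets, 4286 of 22421 (19.1%) were called, 2783 (12.4%) higher and 1503 (6.7%) lower. Of 1022 called genes with more than 1 probe set tested, 350 (34.2%) had all of them called in the same direction. In 12 (1.17%) a probe set was called in the opposite direction. The rises were also larger, with a median log2 ratio of 0.45 among the genes called higher against -0.30 among those called lower, and a median of -0.02 over all genes tested. A change of 1 or more on the log2 scale was reached by 129 called genes upward and by 5 downward. The 3 DMM pools lay wholly above the 3 sham pools for 98.1% of the genes called higher and wholly below for 95.4% of those called lower, where 20.8% and 18.7% of all tested genes were separated in this way. With 3 pools against 3, an exact permutation test of a single gene cannot go below a two-sided p of 0.1.

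The number of calls depended on single pools. Leaving out DMM pool 2, DMM pool 3 or sham pool 2 left 722, 930 and 681 genes called higher and 206, 250 and 172 called lower, while leaving out DMM pool 1 raised the lower calls to 1264. Each of the 2331 genes kept its sign in all 6 fits that left out a pool. For 97.2% of them the DMM and sham pools did not overlap, so the sign could not change in those fits. In every such fit 574 of the higher and 116 of the lower genes were called. With the muscle score as a covariate 1175 genes were higher and 499 lower.

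**Figure D1:**
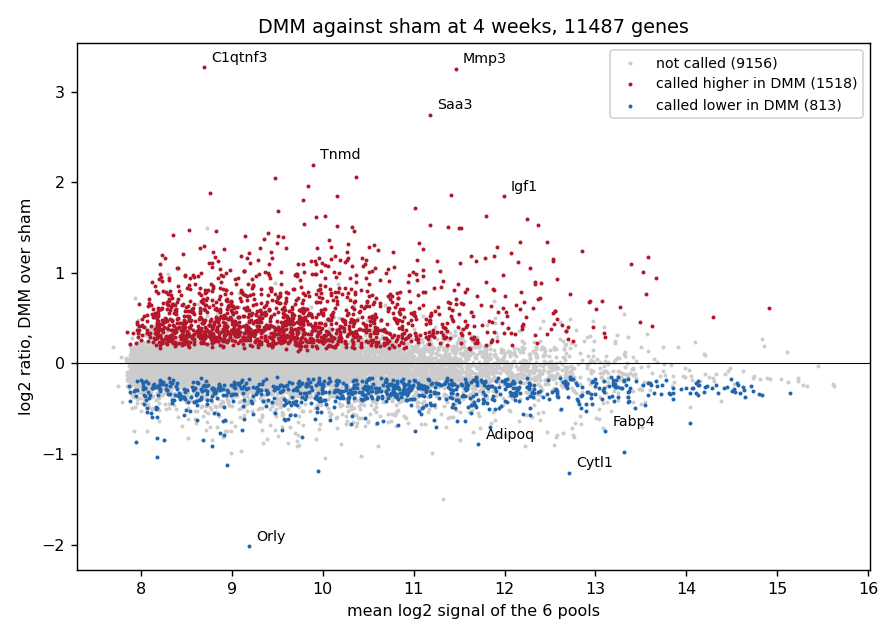
Each point is 1 of 11487 genes, with the mean log2 signal of the 6 pools on the x axis and the log2 ratio of DMM over sham on the y axis. The 1518 genes called higher (red) reach log2 ratios above 3, while most of the 813 called lower (blue) lie above -1.

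The largest log2 ratio was that of C1qtnf3, which encodes the secreted adipokine CTRP3 of the C1q and TNF related family. Its signal was 9.26, 10.86 and 10.87 in the DMM pools and 6.94, 6.29 and 7.94 in the sham pools, so the weakest DMM pool was still brighter than the brightest sham pool. The log2 ratio was 3.27 (95% interval 1.99 to 4.55), a 9.65-fold rise. The sham mean of 7.06 lay below the brightness filter of 7.93, which the gene passed through the groups where it is brighter, so its fold and its rank are uncertain. Of the genes called higher 69 (4.55%) and of those called lower 33 (4.06%) had a dimmer group at or below that filter, among the named genes also Adamts12, Cdh6, Ces1d, Chl1, Enpp3, Lrrc15, Rian, Sfrp1 and Tnfsf11.

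Mmp3, the stromelysin that cuts proteoglycans and activates other metalloproteinases, measured 12.02, 14.57 and 12.68 in the DMM pools and 9.68, 9.15 and 10.67 in the sham pools. DMM pool 2 held the highest value, and the groups did not overlap, as the choice of genes required (log2 ratio 3.26 ± 0.52 (SE, adjusted p = 0.000834)). Saa3, a serum amyloid A protein made in inflamed tissue, measured 11.55, 14.76 and 11.35 in the DMM pools and 9.75, 8.93 and 10.74 in the sham pools. Here DMM pool 2 stood about 3 log2 units above the other DMM pools, and the call at a log2 ratio of 2.75 was lost without DMM pool 2 (1.64, adjusted p = 0.0575) and without sham pool 2 (2.31, adjusted p = 0.0612).

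Tenomodulin (Tnmd), the membrane protein that marks tendon and ligament cells, rose by 2.20 ± 0.34 (SE, adjusted p = 0.000694) from 8.71, 8.20 and 9.47 in the sham pools to 10.54, 10.86 and 11.57 in the DMM pools. DMM pool 3 was the brightest, in contrast to Mmp3 and Saa3. Kera (keratocan), a keratan sulfate proteoglycan of cornea and tendon, showed the same order, with 10.11, 10.36 and 11.59 in the DMM pools and 8.76, 8.37 and 9.52 in the sham pools. Igf1, the growth factor that drives matrix synthesis in chondrocytes, measured 12.54, 13.16 and 13.04 in the DMM pools and 11.26, 10.41 and 11.54 in the sham pools, a 3.59-fold rise that was called with 4 of its 4 probe sets. Matn2, an adaptor protein of filamentous matrix, rose by 1.96 ± 0.28 (SE) and Cthrc1, a secreted protein of repairing fibroblasts, by 1.71 ± 0.35 (SE). For both genes every DMM pool lay above every sham pool, as the choice of the largest rises required.

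Other strong risers encoded secreted, nuclear and cell surface proteins. Tnfaip6 (TSG-6), which transfers heavy chains to hyaluronan, measured 9.75, 11.83 and 9.93 in the DMM pools and 8.52, 8.30 and 8.53 in the sham pools. Timp1, an inhibitor of metalloproteinases, measured 11.50, 13.31 and 12.19 in the DMM pools and 10.53, 10.21 and 10.68 in the sham pools. In both genes DMM pool 2 was at least 1 log2 unit above the other DMM pools. Il33, an alarmin cytokine of stromal nuclei, rose by 1.46 ± 0.32 (SE). Chl1, a neural cell adhesion molecule, rose by 1.88 ± 0.48 (SE), but DMM pool 2 (8.67, 11.45 and 8.96 in pools 1, 2 and 3) carried most of it, and the call was lost without it or without sham pool 2. Angptl1, a secreted angiopoietin-like protein, rose by 2.06 ± 0.40 (SE), although 1 of its 3 probe sets was called. Gpm6b, a proteolipid family membrane protein, Bnc2, a zinc finger factor of fibroblasts, Antxr1, a collagen-binding receptor, and Slc39a14, a zinc and iron importer, had log2 ratios between 1.62 and 1.85. The remaining genes among the 25 largest rises were Itgbl1, Fndc1 and Thbs2, with ratios between 1.52 and 1.54, and the matrix genes described with their families below.

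**Figure D2:**
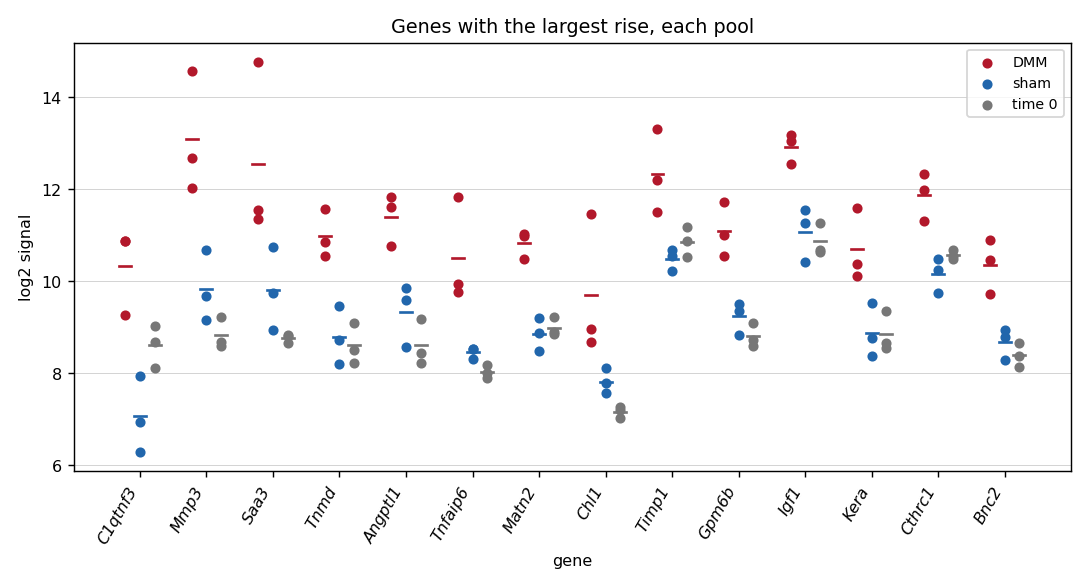
Log2 signal of the 14 genes with the largest rises, with 1 point for each DMM pool, sham pool and time 0 pool and a bar at each group's mean. The genes were chosen among those whose groups did not overlap, so the separation of DMM from sham points was set by that choice. DMM pool 2 sets the top of Mmp3 (12.02, 14.57 and 12.68 in pools 1, 2 and 3) and Saa3 (11.55, 14.76 and 11.35).

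Mmp3 is a textbook target of AP-1, the dimer of Fos and Jun proteins. Promoter sequence was available for 18 of the 25 largest risers (RefSeq, GRCm38.p6, 250 bases before to 50 after the start). The AP-1 type pattern TGANTCA, with any base at N and read on both strands, was found in 3 of those 18 promoters (16.7%). It was found in 2 of 16 promoters of the 25 largest falls (12.5%). Over the called genes it was present in 7.04% of the promoters of genes called higher, in 6.3% of those called lower and in 6.55% of all tested genes, so the shares were alike. TGACGTCA, the cyclic AMP response element, was found in 3.65%, 2.05% and 3.35% of these groups. The 250 bases before the start of the 3 risers that hold the pattern are printed from GRCm38.p6, on the plus strand, with the match in capitals, to show where it lies in each.
Mmp3 chr9:7445572-7445821: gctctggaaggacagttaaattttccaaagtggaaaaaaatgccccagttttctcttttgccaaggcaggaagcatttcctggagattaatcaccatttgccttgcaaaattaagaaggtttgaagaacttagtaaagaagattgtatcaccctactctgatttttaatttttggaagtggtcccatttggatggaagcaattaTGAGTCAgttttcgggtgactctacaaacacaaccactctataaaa
Tnfaip6 chr2:52037863-52038112: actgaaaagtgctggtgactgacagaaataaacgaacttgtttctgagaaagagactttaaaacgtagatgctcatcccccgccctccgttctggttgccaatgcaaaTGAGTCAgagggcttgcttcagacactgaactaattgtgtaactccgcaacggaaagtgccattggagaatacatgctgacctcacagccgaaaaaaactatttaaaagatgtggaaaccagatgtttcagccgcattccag
Igf1 chr10:87860861-87861110: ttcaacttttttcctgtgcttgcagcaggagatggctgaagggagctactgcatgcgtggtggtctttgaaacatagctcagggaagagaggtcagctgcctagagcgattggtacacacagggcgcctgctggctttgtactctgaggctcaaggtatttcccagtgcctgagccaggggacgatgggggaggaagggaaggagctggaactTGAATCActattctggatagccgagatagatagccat
The match begins 46 bases before the start in Mmp3, 142 before it in Tnfaip6 and 37 before it in Igf1. It reads TGAGTCA in Mmp3 and Tnfaip6 and TGAATCA in Igf1. Because N is any base, the pattern is wider than a strict AP-1 site, and the shares above count such variants too. Each is a letter match and not a measured binding site.

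Genes of the fibrous matrix were up-regulated together. Of 17 tested collagen genes of fibrous tissue, 15 were higher in the DMM joints and none lower, with a median log2 ratio of 1.13 against -0.02 over all genes, where 13.2% of genes were called higher. The mean signal of the list was 11.85 to 12.41 in the DMM pools and 10.90 to 11.28 in the sham pools, and 11.12 to 11.39 at time 0. In the same pools the tendon and ligament list, a marker list of one source of these collagens, stood at 11.26 to 11.94 in the DMM pools against 10.32 to 10.85 in the sham pools. Whether more such cells or more RNA per cell lay behind the rise cannot be told apart. Between 14 and 15 collagens stayed called whichever pool was left out, and 14 with the muscle score in the fit.

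Col8a2, a short-chain collagen of vessel walls and basement-like sheets, measured 10.28, 11.37 and 10.87 in the DMM pools and 9.29, 8.87 and 9.49 in the sham pools. Col6a2, a chain of the beaded filaments around cells, measured 12.59, 13.16 and 13.38 in the DMM pools and 11.65, 11.03 and 11.66 in the sham pools, a 3.03-fold rise. Col12a1, which sits on the surface of collagen fibrils under load, measured 11.54, 12.29 and 12.58 in the DMM pools and 10.72, 10.54 and 10.64 in the sham pools. In none of the 3 genes did the groups overlap, which follows from their choice as largest rises. Col14a1, its relative in tendon and capsule, rose by 1.50 ± 0.27 (SE), and Col5a1, which sets fibril width, by 1.13 ± 0.19 (SE) with 3 of 3 probe sets called. The abundant collagens had the smallest ratios. Saturation at high signal was not tested, so how far their RNA changed is uncertain. Col3a1 rose by 0.61 ± 0.20 (SE, adjusted p = 0.0335), with DMM pool 1 just below sham pool 3. The study's PCR of the same pools at this week gave a larger fold change for collagen III, which was not significant. The chains of collagen I were not called: Col1a1 measured 14.13, 14.09 and 14.43 in the DMM pools and 14.14, 13.88 and 13.91 in the sham pools (adjusted p = 0.15), and Col1a2 had a log2 ratio of -0.03 (95% interval -0.23 to 0.18). Of 3 probe sets for Col1a2, 1 was called. The Col3a1 call was lost without DMM pool 2, DMM pool 3, sham pool 1 or sham pool 2 and with the muscle score, while the calls of the other collagens named here held.

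Basement membrane genes, which make the sheet under endothelium and around muscle and fat cells, were higher in 7 of 13 tested, with none lower and a median log2 ratio of 0.55. Col4a1 and Col4a2, the chains of its collagen network, rose by 1.13 ± 0.24 and 1.07 ± 0.18 (SE). Laminin beta 1 (Lamb1) rose by 1.50 and the linker nidogen 2 (Nid2) by 0.88. Perlecan (Hspg2), the proteoglycan of this sheet, had a ratio of -0.01 and laminin alpha 5 (Lama5) one of -0.07, and neither was called.

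Among the enzymes that fold, trim and cross-link collagen, 19 of 23 tested were higher and 1 was lower, with a median log2 ratio of 0.78. Lysyl oxidase (Lox), which starts the cross-links, measured 11.57, 12.67 and 12.42 in the DMM pools and 11.18, 10.95 and 10.97 in the sham pools, and no DMM pool overlapped a sham pool. Its relative Loxl1 rose by 1.05 ± 0.20 (SE). Pcolce, which speeds removal of the procollagen C-propeptide, rose by 1.16, and P4ha2, a prolyl hydroxylase subunit, by 1.14. Pcolce2, a second enhancer of the same proteinase, was the exception. It measured 11.39, 11.12 and 11.55 in the DMM pools and 11.90, 11.96 and 11.85 in the sham pools, a fall of 1.47-fold in which the groups did not overlap (adjusted p = 0.0274), and the call was lost without DMM pool 2, sham pool 1 or sham pool 2. The brightest members were Ppib, which was not called at 0.08, and Serpinh1, which was called higher (adjusted p = 0.0161 in limma). The Serpinh1 call was lost without DMM pool 2, DMM pool 3 or sham pool 2. The general chaperone P4hb rose by 0.51.

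Small leucine-rich proteoglycans, which bind fibrils and set their spacing, were higher in 6 of 12 tested and lower in 1 (median log2 ratio 0.71). Asporin (Aspn), lumican (Lum) and fibromodulin (Fmod) rose by 1.22, 1.18 and 1.10, fibromodulin with 6 of 6 probe sets. Biglycan (Bgn) measured 13.75, 14.21 and 14.12 in the DMM pools and 13.18, 12.76 and 13.12 in the sham pools, and its 3 probe sets were all called. Decorin (Dcn), the brightest of the family, was not called (0.19, adjusted p = 0.286). Chondroadherin (Chad), which is made by chondrocytes, fell by 1.4-fold, from 13.15, 13.16 and 12.95 in the sham pools to 12.68, 12.45 and 12.68 in the DMM pools, with separate groups. Its call was lost without DMM pool 2, sham pool 1 or sham pool 2 and after quantile normalization.

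Among matrix glycoproteins 15 of 23 tested were higher and none lower (median 0.59), but the count dropped to 7 without DMM pool 2 and to 6 without sham pool 2. Periostin (Postn), a cross-linking aid of periosteum and ligament, measured 12.50, 13.34 and 13.57 in the DMM pools and 11.89, 11.66 and 11.86 in the sham pools. Thrombospondins 3 and 4 (Thbs3, Thbs4) rose by 1.41 and 1.11, and Mfap5 of elastic microfibrils by 1.32. Fibronectin (Fn1) rose by 0.51 ± 0.15 (SE). Sparc, the brightest member of the list, was not called at 0.13. Of the proteoglycans of matrix and cell surface, 8 of 16 tested were higher and none lower (median 0.34), and 5 without DMM pool 3. Versican (Vcan), the large proteoglycan of loose tissue, rose by 1.15, and the hyaluronan synthase Has1 measured 9.23, 10.01 and 9.01 in the DMM pools and 8.56, 7.97 and 8.33 in the sham pools, with separate groups. Sdc1 and Sdc4, syndecans of the cell surface, rose by 1.06 and 0.76. The calls of Mfap5, Fn1 and Vcan were lost without DMM pool 2 or sham pool 2, and that of Vcan also without DMM pool 3.

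**Figure D3:**
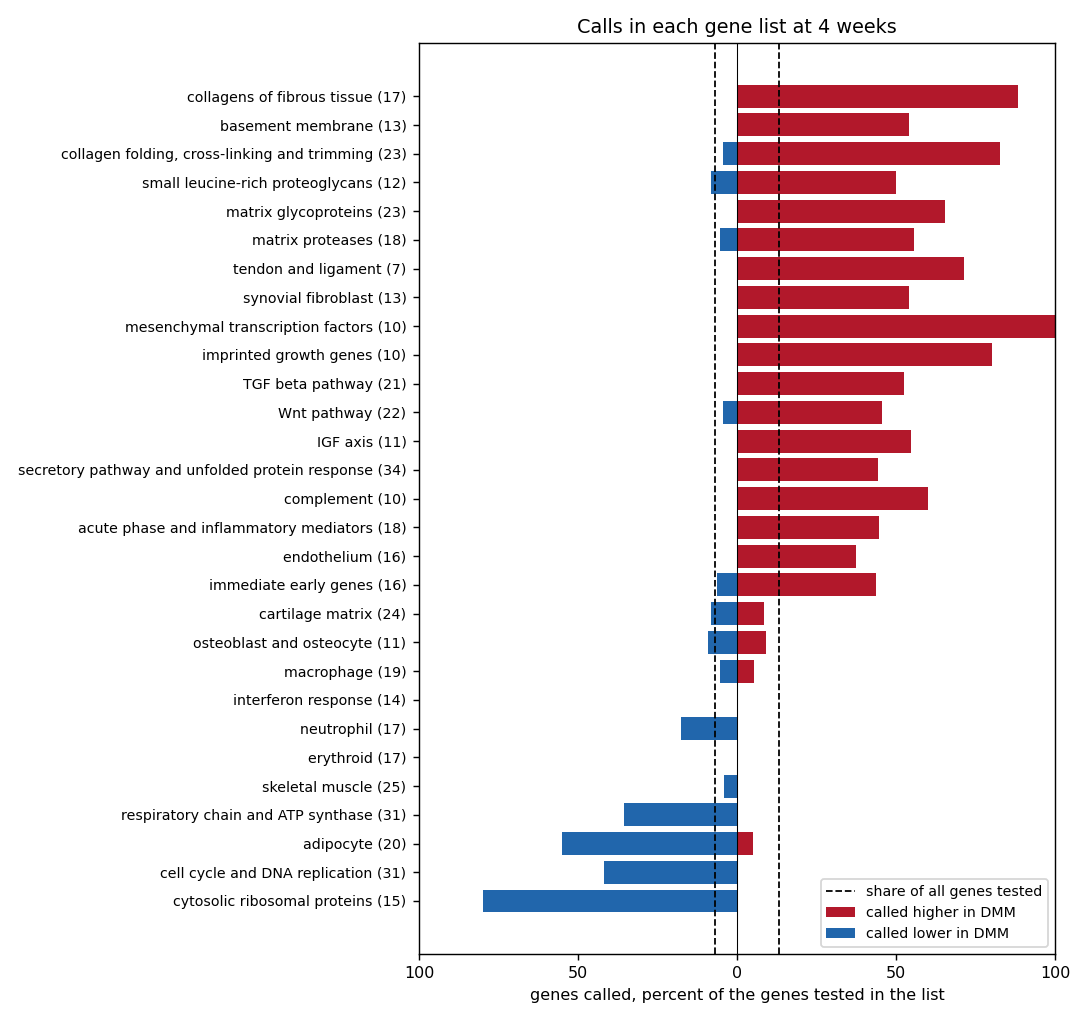
For 29 gene lists, bars give the percentage of tested members called higher (right, red) or lower (left, blue) in the DMM joints, with the number tested in brackets and dashed lines at the shares of all genes (13.2% and 7.08%). Matrix, fibroblast and growth factor lists extend to the right, and fat, respiratory chain, cell cycle and ribosomal lists extend to the left, the ribosomal list with 12 genes of which 1 was lower after quantile normalization.

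Matrix proteases were higher in 10 of 18 tested and lower in 1 (median log2 ratio 0.53), and 9 to 11 were higher whichever pool was left out. After Mmp3, the largest rise was in gelatinase A (Mmp2), which measured 12.70, 13.44 and 13.24 in the DMM pools and 11.99, 10.90 and 11.91 in the sham pools. Htra1, a serine protease that cuts fibronectin and aggrecan, rose by 1.19, and Mmp14, the membrane activator of Mmp2, by 1.06 with 3 of 3 probe sets. Collagenase 3 (Mmp13), which opens collagen II, was already bright: it measured 13.68, 14.03 and 14.11 in the DMM pools and 13.22, 13.13 and 13.17 in the sham pools, a 1.7-fold rise with separate groups. Adamts12, which cuts the cartilage oligomeric matrix protein, rose by 1.10. The aggrecanase Adamts5 was not called. It measured 10.24, 11.25 and 10.48 in the DMM pools and 10.25, 10.18 and 10.41 in the sham pools, so DMM pool 2 stood above the sham pools, while pool 1 lay within their range. Mmp8, the neutrophil collagenase, fell by 1.25-fold (adjusted p = 0.0307), a call lost without any of 5 pools (it held without sham pool 1) and after quantile normalization, and Mmp9, also made by neutrophils and osteoclasts, was not called at -0.10. Of 5 tested inhibitors 3 were higher (1 without sham pool 2): Timp1, Timp2 (0.69, 5 of 5 probe sets) and Serpinf1 (0.69), an anti-angiogenic serpin. Timp3, the inhibitor of aggrecanases, was not called at 0.17. The calls of Timp2 and Serpinf1 were lost without sham pool 2, and also without DMM pool 2 and DMM pool 3, respectively.

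Marker lists of connective tissue cells were read beside the matrix genes, with which they share members, so their counts are not separate evidence. Kera, Fmod and Thbs4 of the tendon list and Cthrc1, Postn and Tnc of the activated fibroblast list were already counted as matrix genes. Thy1 and Pdpn stand in both fibroblast lists. In the tendon and ligament list 5 of 7 tested genes were higher (median 1.10): Tnmd, Kera, Fmod, Thbs4 and Egr1, the last of which lost its call without DMM pool 2, DMM pool 3 or sham pool 2. The tendon master regulator Scx (0.17, adjusted p = 0.269) was not called. In the synovial fibroblast list 7 of 13 were higher and none lower (median 0.58), but 4 without DMM pool 2 and 3 without sham pool 2. Thy1, the marker of sublining fibroblasts, measured 9.57, 10.29 and 10.22 in the DMM pools and 8.99, 8.63 and 8.96 in the sham pools with separate groups, and podoplanin (Pdpn), a marker of lining and activated fibroblasts, rose by 1.25. Dkk3, a secreted glycoprotein of joint fibroblasts, rose by 1.44 but lost its call without DMM pool 2, DMM pool 3 or sham pool 2. Lubricin (Prg4), the lubricant made by lining cells and surface chondrocytes, measured 14.82, 15.38 and 14.71 in the DMM pools and 14.64, 14.59 and 14.86 in the sham pools, with overlapping groups and no call. In the activated fibroblast list 7 of 12 were higher and none lower (median 0.68), led by Cthrc1. Lrrc15, a membrane protein induced by TGF beta, measured 8.92, 9.20 and 9.67 in the DMM pools and 7.84, 7.51 and 8.04 in the sham pools, with separate groups. The smooth muscle actin Acta2, with its partners Tagln and Myl9, is the contractile side of that list, and none of the 3 was called (log2 ratios from -0.17 to 0.16).

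Cartilage and bone genes moved less than fibrous matrix genes. Of 24 tested cartilage matrix genes 2 were higher and 2 lower, with a median log2 ratio of 0.29. Collagen II (Col2a1) measured 13.54, 13.17 and 14.04 in the DMM pools and 13.11, 12.59 and 13.41 in the sham pools, with overlapping groups and a ratio of 0.55 (adjusted p = 0.238). Aggrecan (Acan) rose by 0.54 ± 0.19 (SE) just inside the threshold (adjusted p = 0.0491), from 11.07, 10.88 and 10.82 in the sham pools to 11.31, 11.27 and 11.81 in the DMM pools, with separate groups, and its time 0 pools measured 11.97, 11.57 and 11.71. The call held without DMM pool 1 and was lost without each of the other 5 pools and after quantile normalization. Sox5, the partner of Sox9 in chondrocytes, rose by 0.69 ± 0.16 (SE), and Sox9 itself was not called at 0.33. The mean signal of the cartilage list was 10.79 to 11.29 in the DMM pools, 10.72 to 10.94 in the sham pools and 11.43 to 11.64 at time 0. Of 7 tested genes of hypertrophic cartilage 1 was higher, Mmp13, and Col10a1, its defining collagen, was not called at 0.36.

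In the osteoblast and osteocyte list 1 of 11 was higher and 1 lower (median 0.16). Bone sialoprotein (Ibsp) rose by 0.46 (adjusted p = 0.0408), a call lost without 5 of the 6 pools in turn. Sclerostin (Sost), the osteocyte inhibitor of Wnt signaling and bone formation, measured 10.24, 10.54 and 10.25 in the DMM pools and 10.99, 11.25 and 10.70 in the sham pools. Every DMM pool lay below every sham pool, a 1.55-fold fall (adjusted p = 0.0159). The call was lost without DMM pool 3 or sham pool 2. In the osteoclast list 2 of 9 were higher (median 0.19): RANK ligand (Tnfsf11), which drives osteoclast formation, at 8.31, 9.52 and 8.93 in the DMM pools and 7.83, 7.82 and 7.94 in the sham pools, and the fusion receptor Dcstamp, which rose by 0.40. The Tnfsf11 call was lost without DMM pool 2 and the Dcstamp call without DMM pool 3 or sham pool 3. The resorption enzymes Ctsk and Acp5 were not called (0.40 and 0.18).

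Growth factor pathways of the joint were higher in part, with ligands, receptors and extracellular regulators among the calls. In the TGF beta list 11 of 21 tested genes were higher and none lower (median 0.37), and 5 without DMM pool 2 or sham pool 2. Of the ligands, Tgfb3 measured 9.34, 9.44 and 9.67 in the DMM pools and 8.63, 8.34 and 8.87 in the sham pools with separate groups, while Tgfb1, the most studied ligand, had a ratio of -0.02 (95% interval -0.19 to 0.16). Follistatin-like 1 (Fstl1), a secreted modulator, rose by 1.13 ± 0.21 (SE), the receptor Acvr1 by 0.84 and Ltbp1, which holds latent ligand in the matrix, by 0.70. The target Ccn2 was not called at 0.19. Of 13 tested genes of the BMP pathway 3 were higher: the extracellular regulator Bmper (1.17) and the receptors Bmpr1a (0.67) and Bmpr2 (0.49).

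In the Wnt list 10 of 22 were higher and 1, Sost, was lower (median 0.22). The secreted antagonist Sfrp2 had the largest ratio, but the antagonists did not move as a group. Sfrp5, Frzb, Dkk1 and Wif1 were not called. The receptors Fzd1, Fzd2, Fzd7 and Lrp6 were called higher. Sfrp2 measured 10.79, 10.82 and 11.63 in the DMM pools and 9.65, 9.21 and 9.98 in the sham pools, a 2.76-fold rise with separate groups and DMM pool 3 highest. Sfrp1 and Sfrp4 rose by 0.98 and 0.80, and Ccn5, a matricellular protein induced by Wnt, by 1.08. The Sfrp1 call was lost without DMM pool 2 or sham pool 2. Axin2, a feedback gene often read as a measure of canonical Wnt signaling, was not called at -0.06. In the IGF axis 6 of 11 were higher and none lower (median 0.40), but 1 without DMM pool 2 or sham pool 2 and 3 without DMM pool 3. Igfbp3 and Igfbp7, binding proteins that hold the ligand, rose by 0.81 and 0.62. The receptor Igf1r was not called at 0.05, and neither was Igf2 at -0.03. The calls of Igfbp3 and Igfbp7 were lost without DMM pool 2 or sham pool 2.

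Of 17 tested genes of the EGF, PDGF, FGF and nerve growth factor list, 8 were higher and none lower (median 0.62). Egfr, the receptor of epidermal growth factor, measured 10.13, 10.61 and 10.69 in the DMM pools and 9.46, 9.12 and 9.47 in the sham pools with separate groups. The receptors Pdgfra and Pdgfrb, which mark fibroblasts and pericytes, rose by 0.78 and 0.71, and Pdgfrl by 1.22. All 10 tested mesenchymal transcription factors were higher (median 0.68), 7 without DMM pool 3 or sham pool 2. The list held 20 genes, and the rest lay below the brightness filter or had no probe set of their own. Among them Meox2, Snai2, Runx1 and Prrx1, regulators of limb and fibroblast fate, rose by 0.91 to 0.95, and Erg, a factor of joint cartilage and endothelium, measured 8.96, 9.10 and 8.98 in the DMM pools and 8.30, 8.18 and 8.55 in the sham pools. Of 10 tested imprinted growth genes 8 were higher (median 0.55), but 5 without DMM pool 2, 2 without DMM pool 3, 2 without sham pool 2 and 2 over the 6 arrays alone. Grb10, a maternally expressed inhibitor of insulin and IGF receptors, measured 10.51, 10.70 and 11.21 in the DMM pools and 9.72, 9.50 and 9.84 in the sham pools. The noncoding RNAs Rian and Meg3 of one imprinted cluster rose by 1.05 and 0.84, calls lost without DMM pool 3 or sham pool 2.

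Inflammatory genes rose in part. In the list of acute phase proteins and inflammatory mediators 8 of 18 tested were higher and none lower (median 0.40). That count was 2 without DMM pool 2, 4 without sham pool 2 and 3 over the 6 arrays alone. Osmr, the oncostatin M receptor, rose by 1.09 ± 0.23 (SE), and the chemokine Cxcl14 by 1.01. Cxcl5, a neutrophil attractant of stromal cells, measured 8.34, 11.39 and 8.69 in the DMM pools and 8.15, 7.91 and 7.87 in the sham pools. DMM pool 2 was far above the others and the ratio of 1.50 was not called (adjusted p = 0.0653). Il1b, the macrophage cytokine, was not called at 0.18, and the calprotectin genes S100a8 and S100a9 had ratios of -0.23 and -0.25, not called. In the complement list 6 of 10 were higher and none lower (median 0.56), and 2 without DMM pool 2 or sham pool 2. Over the 6 arrays alone 1 complement gene was higher. C1s1, the serine protease of the first component, measured 10.50, 11.35 and 10.78 in the DMM pools and 9.75, 9.12 and 10.08 in the sham pools with separate groups, its partner C1ra rose by 0.94, and the inhibitor Serping1 by 0.77. The calls of Cxcl14 and Serping1 were lost without DMM pool 2 or sham pool 2, and those of C1ra and Serping1 over the 6 arrays alone.

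The C1q and TNF related proteins were higher in 4 of 4 tested, of 8 listed, whichever pool was left out. Beside C1qtnf3 these were C1qtnf1 (1.17), C1qtnf2 (0.81) and C1qtnf6 (0.65). Markers of the macrophage changed little: of 19 tested 1 was higher and 1 lower (median 0.06). The scavenger receptor Msr1 rose by 0.60 (adjusted p = 0.0129) and Cd163, which marks resident macrophages, measured 9.39, 9.14 and 9.56 in the DMM pools and 9.62, 9.91 and 10.26 in the sham pools and fell (adjusted p = 0.0274), with groups that were separate by a narrow margin. Both calls were lost without DMM pool 2 or sham pool 2, that of Msr1 also without DMM pool 3 and that of Cd163 without sham pool 3. Csf1r, which defines the lineage, had a ratio of -0.02 (95% interval -0.20 to 0.15). Of 9 tested MHC class II genes 2 were lower, H2-DMa (-0.31) and H2-DMb2 (-0.38), and neither call survived the loss of DMM pool 2, DMM pool 3 or sham pool 1. None of 14 tested interferon response genes was called, with 0.58 for Gbp2 as the highest ratio (adjusted p = 0.0622). Of 16 tested immediate early genes 7 were higher and 1 lower (median 0.36), and 4, 4 and 3 without DMM pool 2, DMM pool 3 or sham pool 2. Fos measured 10.53, 10.97 and 11.95 in the DMM pools and 9.98, 9.90 and 9.71 in the sham pools, and Myc fell by 1.17-fold (adjusted p = 0.0411), a call that held without sham pool 2 and was lost without each of the other 5 pools.

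Vessel markers were higher in 6 of 16 tested, with none lower (median 0.23), and 3 without DMM pool 3 or sham pool 2. Pecam1, the junction protein of endothelium, measured 8.71, 8.82 and 8.81 in the DMM pools and 8.16, 8.24 and 8.40 in the sham pools, a 1.43-fold rise with separate groups. The apelin receptor Aplnr rose by 0.94 and endomucin (Emcn) by 0.57, the latter a call lost without DMM pool 2, DMM pool 3, sham pool 1 or sham pool 2. Von Willebrand factor (Vwf) was not called at -0.21. Of 8 tested genes of pericytes and smooth muscle 3 were higher whichever pool was left out: Rgs5 (0.90, 4 of 4 probe sets), Pdgfrb and Cspg4. In the secretory pathway 15 of 34 tested genes were higher and none lower (median 0.31), and 9, 9 and 6 without DMM pool 2, DMM pool 3 or sham pool 2. Kdelr3, a retrieval receptor for chaperones, measured 10.36, 10.73 and 10.93 in the DMM pools and 9.96, 9.40 and 9.67 in the sham pools. The coat protein Sec24d and Creb3l2, a factor that enlarges the secretory apparatus for collagen export, rose by 0.75 and 0.74. The Sec24d call was lost without sham pool 2. The stress genes Hspa5 (BiP) and Ddit3 (CHOP) were not called (0.13 and -0.09).

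Genes that fell did so by smaller amounts. Cytl1, a secreted protein of chondrocytes, measured 12.28, 12.08 and 11.96 in the DMM pools and 13.50, 13.36 and 13.08 in the sham pools. The groups lay far apart, and the call held in every leave-one-out fit. Cdh6, a cadherin, measured 7.79, 7.43 and 7.76 in the DMM pools and 8.60, 9.11 and 8.37 in the sham pools, and the N-terminal methyltransferase Ntmt1 measured 8.08, 8.61 and 8.46 in the DMM pools and 9.31, 10.02 and 9.19 in the sham pools, both with separate groups. Psg28, a pregnancy-specific glycoprotein family member, fell by 2.28-fold, but the family shares sequence, and its call was lost without DMM pool 2, DMM pool 3, sham pool 1 or sham pool 2 and with the muscle score. Orly showed the largest fall, from 10.11, 10.77 and 9.71 in the sham pools to 8.14, 8.11 and 8.29 in the DMM pools, while its time 0 pools measured 7.92, 8.22 and 8.67, near the DMM pools. It is a multi-copy gene of the Y chromosome, 1 of its 2 probe sets was called, and its value is uncertain. Ighm, the heavy chain of immunoglobulin M, measured 12.96, 12.35 and 13.16 in the DMM pools and 14.14, 13.19 and 14.06 in the sham pools, with an adjusted p of 0.0448. The call was lost without DMM pool 2, DMM pool 3, sham pool 1 or sham pool 3 and after quantile normalization, and the mean over its probe sets was 0.53 higher in the DMM joints and not called (adjusted p = 0.352).

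**Figure D4:**
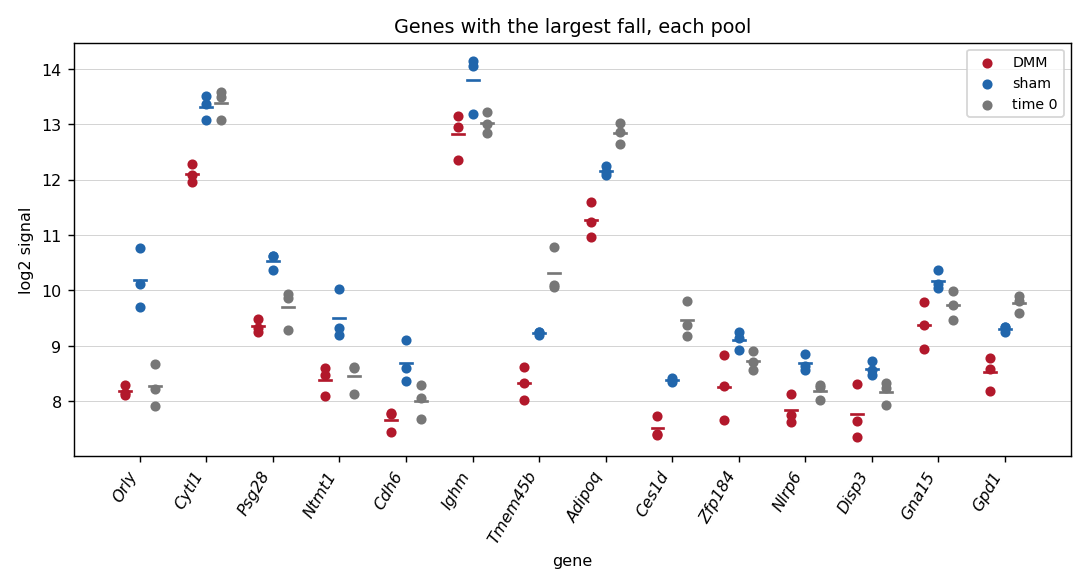
Log2 signal of the 14 genes with the largest falls, with 1 point for each DMM pool, sham pool and time 0 pool and a bar at each group's mean. The genes were chosen among those whose groups did not overlap, so the separation of DMM from sham points was set by that choice. For Orly, Psg28 and Ntmt1 the time 0 points lie nearer the DMM points, while for Adipoq and Ces1d they lie above the sham points.

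Genes of fat cells fell together. Of 20 tested adipocyte genes 11 were lower and 1 higher, with a median log2 ratio of -0.46, where 7.08% of all genes were called lower. The mean signal of the list was 9.65 to 9.85 in the DMM pools, 10.14 to 10.18 in the sham pools and 10.55 to 10.90 at time 0, so the DMM pools were the lowest of the 3 groups. The count of lower genes was 4, 5, 6 and 5 without DMM pool 2, DMM pool 3, sham pool 1 and sham pool 2, 12 without DMM pool 1, and 9 with the muscle score. Fabp4, the fatty acid binding protein of adipocytes, measured 12.87, 12.54 and 12.78 in the DMM pools and 13.31, 13.62 and 13.52 in the sham pools, and its 4 probe sets were all called lower. Ces1d, a carboxylesterase of fat droplets, measured 7.73, 7.39 and 7.41 in the DMM pools and 8.34, 8.38 and 8.42 in the sham pools. Adiponectin (Adipoq) fell from 12.14, 12.24 and 12.09 to 11.59, 10.97 and 11.24, and Plin4, a droplet coat protein, from 9.18, 9.41 and 9.18 to 8.72, 8.41 and 8.35. In each of these genes the groups did not overlap, which follows from their choice as largest falls. Gpd1, which makes the glycerol backbone of triglycerides, and the insulin-responsive glucose transporter Slc2a4 fell by 1.73-fold and 1.66-fold. Car3, an abundant carbonic anhydrase of fat and slow muscle, fell by 1.58-fold. Without DMM pool 2 the calls of Adipoq, Gpd1, Slc2a4 and Car3 were lost, those of Gpd1 and Slc2a4 also without DMM pool 3, sham pool 1 or sham pool 2, and that of Gpd1 without sham pool 3. Angptl4, a lipase inhibitor also induced by hypoxia, was the member that rose, at 10.07, 11.71 and 10.50 in the DMM pools and 9.45, 9.55 and 9.87 in the sham pools, and lost its call without DMM pool 2 or sham pool 2. Fatty acid synthase (Fasn) and lipoprotein lipase (Lpl) were not called (-0.12 and 0.06).

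Skeletal muscle genes had the lowest median ratio of any list, -0.72 over 25 tested, yet 1 was called lower, Car3, and none higher. Myosin heavy chain Myh1 measured 12.63, 7.50 and 11.59 in the DMM pools and 11.91, 12.27 and 12.03 in the sham pools. DMM pool 2 was far below the other pools, and DMM pool 1 was the brightest of the 6. Myoglobin (Mb) measured 11.24, 8.34 and 10.16 in the DMM pools and 11.16, 11.00 and 10.64 in the sham pools, so the groups overlapped (adjusted p = 0.431). Alpha actin (Acta1) measured 12.97, 12.45 and 12.79 in the DMM pools and 13.35, 13.31 and 13.39 in the sham pools, with separate groups but no call (adjusted p = 0.506) in the fit whose spread comes from all 26 arrays. Over the 6 arrays alone 16 muscle genes were called lower. The part of muscle tissue in the other falls was not tested beyond the fit with the muscle score.

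Genes of the respiratory chain and ATP synthase were lower in 11 of 31 tested and higher in none (median -0.20), and 2 without DMM pool 2, DMM pool 3 or sham pool 2, 5 without sham pool 1, 9 with the muscle score and 4 after quantile normalization. Uqcrc1, a core subunit of complex III, measured 11.57, 11.33 and 11.29 in the DMM pools and 11.86, 11.89 and 11.84 in the sham pools with separate groups, and Ndufa4 and Ndufb8 fell by 1.24-fold and 1.25-fold. The isoforms particular to muscle and brown fat, Cox8b, Cox7a1 and Cox6a2, had lower ratios, -0.87 to -0.73, and were not called. Of 17 tested genes of glycolysis and glycogen 2 were higher and 1 lower (median -0.22). Fbp2, the muscle fructose bisphosphatase, rose by 1.11 (adjusted p = 0.041) and Ldha, which makes lactate, fell by 1.16-fold. The Ldha call was lost whichever pool was left out and after quantile normalization, the Fbp2 call without DMM pool 2, sham pool 1 or sham pool 2, and those of Uqcrc1 and Ndufb8 without DMM pool 2 or DMM pool 3.

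Cell cycle genes were lower in 13 of 31 tested and higher in none (median -0.37). This count was 1 without DMM pool 2, DMM pool 3 or sham pool 2, 6 without sham pool 3, 24 without DMM pool 1, 5 with the muscle score and 8 after quantile normalization. Mcm7, a subunit of the replicative helicase, measured 12.92, 12.40 and 12.59 in the DMM pools and 13.16, 13.22 and 13.10 in the sham pools, and the mitotic kinase Cdk1 11.90, 11.63 and 11.66 in the DMM pools and 12.10, 12.29 and 12.21 in the sham pools, with separate groups for both. Cyclin B2 (Ccnb2) and the centromere histone Cenpa fell by 1.41-fold and 1.39-fold. The Cdk1 call held whichever pool was left out, and the calls of Mcm7, Ccnb2 and Cenpa were lost without DMM pool 2, DMM pool 3 or sham pool 2, those of Mcm7 and Ccnb2 also after quantile normalization. Of 15 tested cytosolic ribosomal protein genes 12 were lower and none higher (median -0.25), and 6 and 4 without DMM pool 2 or sham pool 2. After quantile normalization 1 of the 15 was lower and their median was -0.07, against -0.04 over all genes under that scaling. The count and the median of this list thus depended on the scaling, and which scaling is nearer the truth was not tested. Rpl27 measured 13.59, 13.41 and 13.42 in the DMM pools and 13.78, 13.84 and 13.80 in the sham pools and Rps14 14.36, 14.29 and 14.39 in the DMM pools and 14.59, 14.68 and 14.69 in the sham pools, so the groups were separate although the falls were 1.26-fold and 1.23-fold, and the Rps14 call was lost after quantile normalization (-0.08). The mean signal of the ribosomal list was 13.39 to 13.44 in the DMM pools and 13.60 to 13.67 in the sham pools, while the time 0 pools, at 13.41 to 13.45, lay close to the DMM range.

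The neutrophil, erythroid and B cell precursor lists of marrow all had a median log2 ratio below 0. The mean signal of the neutrophil list was 13.15 to 13.40 in the DMM pools and 13.43 to 13.52 in the sham pools, and 3 of 17 tested genes were lower (median -0.25), between 0 and 5 when a pool was left out and 0 after quantile normalization. The granule protein Camp measured 14.96, 15.04 and 14.93 in the DMM pools and 15.19, 15.32 and 15.39 in the sham pools, and myeloperoxidase (Mpo) fell by 1.31-fold, and both calls were lost without DMM pool 2, DMM pool 3, sham pool 2 or sham pool 3 and after quantile normalization. The erythroid list stood at 11.05 to 11.75 against 11.75 to 11.94 with no call among 17 (median -0.48), and its Slc4a1, the band 3 anion exchanger, had a ratio of -0.48. The B cell precursor list stood at 9.37 to 10.14 against 10.12 to 10.23 with no call among 10 (median -0.39). Of 7 tested plasma cell genes 1 was higher, Sdc1, and 1 lower, Ighm (0 lower without DMM pool 2, DMM pool 3, sham pool 1 or sham pool 3), and the antibody joining chain Jchain was not called at -0.35. None of 10 tested T and NK cell genes was called (median -0.16). The part of marrow cells in the fall of the cell cycle genes was not tested.

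The unoperated joints of time 0 give a second reference, in mice 4 weeks younger. The DMM pools of 4 weeks were above time 0 for 903 genes (7.86%) and below it for 212 (1.85%), or 1832 probe sets in all (8.17%), while the sham pools of 4 weeks were above time 0 for 54 (0.47%) and below for 65 (0.566%), or 274 probe sets in all (1.22%). These comparisons share pools with the one of DMM against sham, so their values are given side by side. The Gapdh 3′ to 5′ log2 difference was 0.21, 0.21 and 0.28 at time 0, below every pool of 4 weeks. With it as a covariate 771 probe sets were called for DMM against time 0 and 12 for sham against time 0. Leaving out 1 pool gave 656 to 2950 and 1 to 263. Mmp3 measured 9.21, 8.68 and 8.58 at time 0, with 2 of the 3 time 0 pools below every sham pool of 4 weeks, and Igf1 measured 11.27, 10.64 and 10.68, within the sham range of 4 weeks. Col12a1 measured 11.34, 11.23 and 11.39 at time 0, above every sham pool and below every DMM pool. Cytl1 measured 13.59, 13.08 and 13.49 at time 0, over the range of the sham pools, and Rps14 measured 14.31, 14.35 and 14.38, within the range of the DMM pools.

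At the other weeks fewer genes were called. DMM against sham gave 225 genes higher (1.96%) and 108 lower (0.94%) at 2 weeks, none (0%) at 8 weeks, where 1413 genes had an unadjusted p under 0.05 in limma, and 6 higher (0.0522%) and none lower at 16 weeks. Without the 2-week sham pool 2, the 2-week counts were 303 higher and 220 lower. Of the genes called higher at 4 weeks, 207 were also called higher at 2 weeks and 6 at 16 weeks, and of those called lower, 50 were also called lower at 2 weeks. The 2-week comparison rested on 2 DMM pools. The log2 ratio of Mmp3 was 2.47, 3.26, 0.90 and 1.30 at 2, 4, 8 and 16 weeks, and that of C1qtnf3 was 2.20, 3.27, 0.69 and 2.97. Saa3 went from 2.75 at 4 weeks to -0.15 and -0.18 at 8 and 16 weeks. Among the falls, Cytl1 stood at -1.12, -1.20, -0.40 and -0.49, and Adipoq at -0.88, -0.89, -0.27 and -0.15. Rps14 was at -0.30 at 4 weeks and within 0.04 of 0 at the other weeks. The test of the 4-week ratio against the mean ratio of the other 3 weeks called no gene (0%) in limma, with 1949 genes at an unadjusted p under 0.05 and a lowest adjusted p of 0.0843, so the ratios at 4 weeks were not shown to differ from the mean of the other weeks. Single weeks were not tested against each other.

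**Figure D5:**
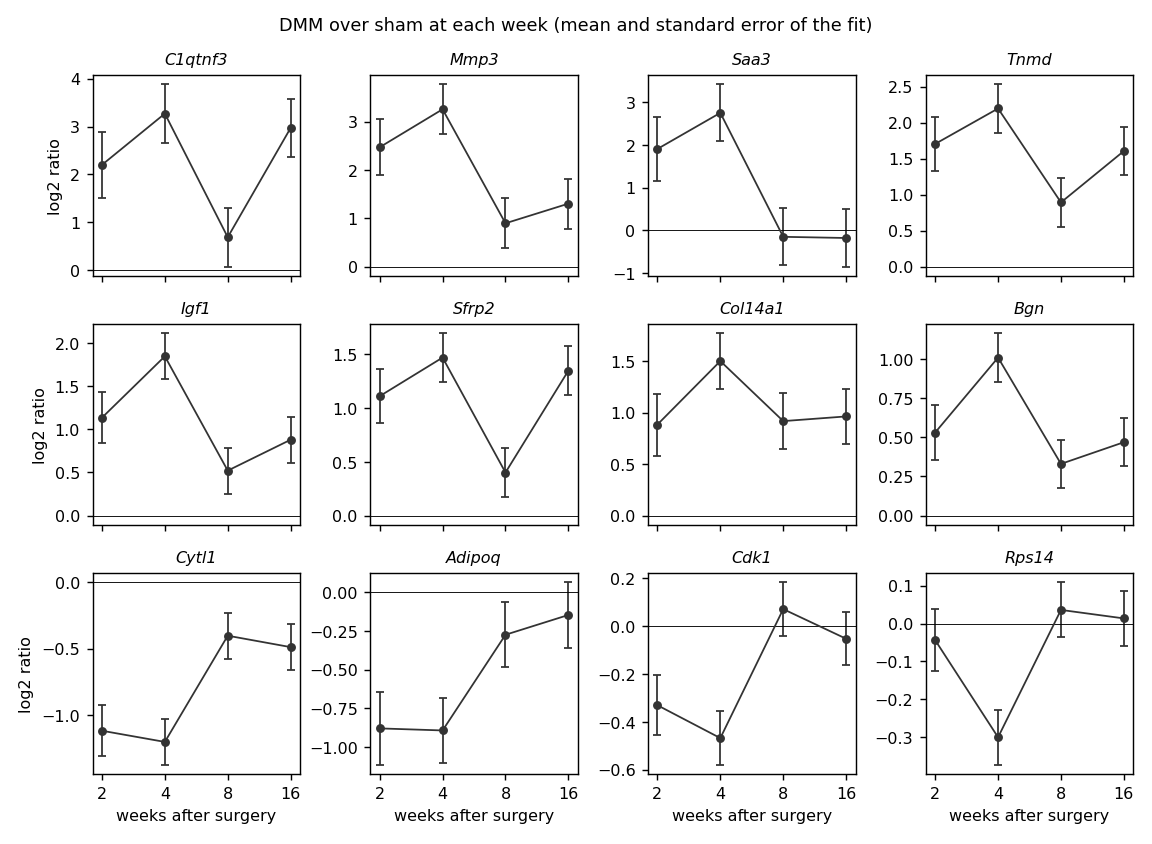
Log2 ratio of DMM over sham for 12 genes at 2, 4, 8 and 16 weeks, with bars of 1 standard error of the fit. Genes whose ratio is farthest from 0 at 4 weeks include Mmp3 (3.26), Igf1 (1.84), Cytl1 (-1.20), Rps14 (-0.30), C1qtnf3 and, by a narrow margin over 2 weeks, Adipoq. No gene passed the test of the 4-week ratio against the mean of the other weeks.

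Of 45 tested genes that the study itself discussed, 37 were higher and 2 lower at 4 weeks (28 to 39 higher when a pool was left out). The study named most of them from these same pools and took others, measured by PCR, from its earlier work, so this count is not independent evidence of a direction. The 2 lower genes were Cytl1 and H2az1, a histone variant, at 13.24, 13.16 and 13.11 in the DMM pools and 13.50, 13.59 and 13.53 in the sham pools. Comp and Tgfb2, which the study by its own filter placed in clusters highest at 4 weeks, were not called here (adjusted p = 0.164 and 0.0694 in limma). Comp stood at 13.65 to 13.80 in the DMM pools and at 13.28 to 13.52 in the sham pools. Ackr3, a scavenging chemokine receptor, Ddr2, a collagen-binding receptor kinase, and Enpp3, a nucleotide pyrophosphatase, rose by 1.02, 0.80 and 0.61, with groups that did not overlap.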

How the data were processed

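RNA of 26 joint pools was measured on 1-colour Affymetrix mouse genome arrays. The deposited values are log2 signals per probe set, which the authors had summarized and normalized by systematic variation normalization, and no detection p-values were used here. Of 45101 probe sets, 64 controls and those with a mean log2 signal over the 26 arrays of 7.93 or less were left out, and 22421 were tested. The platform annotation gave 1 symbol for 34958 probe sets, several for 932 and none for 9211, and each gene was represented by its brightest probe set (11487 genes). A filter on the mean over all arrays can drop a gene present in few groups. Saturation at high signal was not tested, and the 3′ probes do not tell transcripts apart.

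limma (version 3.58.1, R 4.3.3) was fitted to all 26 arrays with 1 coefficient per condition (17 residual degrees of freedom), and Benjamini-Hochberg adjusted p under 0.05 over all probe sets was the call. Intervals are 95% intervals of that fit. The fit was tested on simulated data. p-values measure the spread between pools of 3 mice. Replicate numbers of the pools carry no pairing: pools were drawn at random into the study's time courses. The deviations of same-numbered DMM and sham pools correlated at 0.29, -0.19 and 0.08.

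Genes were named by a rule: the 25 highest and 25 lowest log2 ratios among called genes whose pools did not overlap, up to 4 members of each of 51 lists with the largest ratios and its 2 brightest, each tested gene the study discusses, and the largest differences between weeks, of which none was called. Acta1, Axin2, Chad, Col1a1, Col2a1, Csf1r, Cxcl14, Ddit3, Dkk1, Fasn, Frzb, Fzd1, Fzd2, Fzd7, Gpx4, Hspg2, Igf1r, Igf2, Il1b, Lama5, Lpl, Lrp6, Mfap5, Myc, Myl9, Ndufa4, Ndufb8, P4hb, Pcolce2, Scx, Sfrp5, Sod1, Sox9, Tagln, Tgfb1, Timp3 and Txnrd1 lie outside it and were named after their values were seen. The comparison and the lists were chosen with earlier results of these data known. Alternatives were other filters, quantile normalization, array weights, an intensity trend, the replicate number as a block, the muscle score (the mean of 25 muscle genes) or the Gapdh 3′ to 5′ difference as a covariate, the mean over probe sets, the 6 arrays alone and each pool left out. Leaving out the 2-week sham pool 2 was added after seeing the data.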

Additional observations from a re-analysis of the deposited data

How the results depend on the processing

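Of 1518 genes called higher and 813 called lower (2783 and 1503 probe sets), 865 and 280 (1549 and 526 probe sets) were called over the 6 arrays alone, and 2555 and 2684 (4864 and 4753) with array weights, whose estimate did not converge. The stricter brightness filter left 1748 probe sets higher, the muscle score left 499 genes lower, and a log2 ratio of 0.5 in every DMM pool left 297 and 19 genes (501 and 51 probe sets). With the replicate number as a replicate block over those 6 arrays no gene or probe set was called either way (0), although 3486 genes (6558 probe sets) had an unadjusted p under 0.05 and the lowest adjusted p in limma was 0.0533. The numbers do not pair the pools. Leaving out 1 pool gave 681 to 1752 genes higher and 172 to 1264 lower (1208 to 3311 and 364 to 2230 probe sets). No setting called a gene in the opposite direction. The share of calls that were higher was 65.1%, against 75.5% over the 6 arrays alone, 48.8% with array weights, and 77.8%, 78.8% and 79.8% without DMM pool 2, DMM pool 3 and sham pool 2.

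DMM at 4 weeks against time 0 called 1832 probe sets, and 354 over those arrays alone, 9728 with array weights, 3037 with the muscle score, 771 with the Gapdh difference and 656 to 2950 without 1 pool. Sham at 4 weeks against time 0 called 274, and 168 after quantile normalization, 1530 with array weights, 12 with the Gapdh difference and 1 to 263 without 1 pool. The test of the 4-week ratio against the other weeks called 0 probe sets, and 1 with the stricter filter, 4151 with array weights, 1 with the Gapdh difference and 0 to 8 without 1 pool, the 8 without sham pool 3. Ighm turned from a fall to 0.53 with the mean over its probe sets. Of 190 named genes that were called, 64, 52 and 70 lost the call without DMM pool 2, DMM pool 3 and sham pool 2. The cause of these changes was not tested. The depth of an array is limited by its signal over background, and ratios of genes near the brightness filter are the least certain.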

Other observations

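The smaller gene groups are read against the shares of all genes called higher (13.2%) and lower (7.08%). In the glutathione and redox list 5 of 17 tested genes were higher and 3 lower (median log2 ratio -0.11). After quantile normalization 4 were higher and none lower, with a median of 0.01. Sod3, the extracellular superoxide dismutase, measured 10.70, 11.82 and 11.05 in the DMM pools and 10.25, 9.98 and 10.35 in the sham pools, and the endoplasmic reticulum peroxidases Gpx7 and Gpx8 rose by 0.99 and 0.74. The plasma peroxidase Gpx3 and the thioredoxin reductase Txnrd1 rose by 0.60 and 0.18. The members called lower were Sod1 (log2 ratio -0.37), Gpx1 (-0.35) and Gpx4 (-0.33). Without DMM pool 2 the list held 1 higher and 0 lower gene, and without sham pool 2 it held 2 and 0. Of 14 tested circadian genes 2 were higher, a share close to that of all genes, Clock at 8.91, 9.55 and 9.43 in the DMM pools and 8.52, 8.46 and 8.78 in the sham pools and Bhlhe40 with a ratio of 0.57, and none without DMM pool 2, while the output gene Dbp, which swings widely over the day, was not called at -0.11.

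Of 20 tested proteasome subunits 3 were lower (median -0.12), between 0 and 5 when a pool was left out, with ratios from -0.26 for Psma1 to -0.19 for Psmd14. Of 16 cholesterol synthesis genes 1 was lower, a share below that of all genes. It was Lss at 9.51, 9.68 and 9.58 in the DMM pools and 9.82, 10.16 and 9.90 in the sham pools, a call lost without DMM pool 3 or sham pool 2. Of 5 tested Schwann cell genes 1 was lower, Mbp of myelin (-0.26, adjusted p = 0.00905), and it was called whichever pool was left out. The Mbp call was lost over the compared arrays alone, with the mean over its probe sets and with the replicate block. Of 3 tested epidermal genes 1 was higher, Krt10 (0.29, adjusted p = 0.0156), a call lost without DMM pool 2 or sham pool 2. None of 7 mast cell and eosinophil genes was called (median -0.24), and 3 were lower without DMM pool 1.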
